A study of Mus musculus with 2 samples.

Results

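The T-box genes of the mouse sinoatrial node were compared between a control library and a library from Isl1 mutant embryos. Members were all genes of the deposited expression table whose symbol is Tbx followed by a number. Of the 6 T-box genes sought, Tbx3, Tbx5, Tbx18 and Tbx20 had a row, which made 4 members among 12446 symbols. Tbx1 and Tbx2 had no row and were not analysed here. The sinoatrial node is the small group of specialised heart muscle cells that paces the heartbeat. Control embryos were Hcn4-CreERT2; Isl1+/+; Rosa-tdTomato, and mutant embryos were Hcn4-CreERT2; Isl1f/f; Rosa-tdTomato, all of strain ICR. Both genotypes thus carried the recombinase, which is under the control of the pacemaker channel gene Hcn4 and works only after tamoxifen, and the red reporter that recombination switches on. Tamoxifen was given at E10.5 and nodes were collected 36 hours later, although the stage label reads E12.5. Nodes of 1 genotype were pooled, endothelial cells were depleted with CD31 beads, and red cells were sorted. The sort selects for cells in which Hcn4-CreERT2 had acted, and each genotype is 1 library from 1 pool, so no replicate error exists and no test was made.

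T-box proteins are transcription factors that bind DNA through a shared domain, the T-box, and recognise a common short sequence. Members differ in what they do there. TBX5 and TBX20 mostly activate heart muscle genes together with NKX2-5 and GATA factors, whereas TBX2, TBX3 and TBX18 act mainly as repressors. In the node, TBX18 is known for the formation of its head from sinus venosus cells, and TBX3 for keeping node cells from taking on the atrial muscle programme.

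Values were taken as RPKM, reads scaled to exon length and to the size of the library, which, as worked out from the values, was 110117186 reads for the control and 119018888 for the mutant. Isl1, the targeted LIM-homeodomain factor gene (chromosome 13, 117088478 to 117099896, mm9), went from 7.65 RPKM to 1.52 RPKM, 19.9% of control. Of the node's defining genes, Shox2 stood at 14.8 RPKM and Hcn4 at 1.99 RPKM in the control library, so both were present there. Intervals in the text are exact 95% intervals for counting error alone, with each read counted as independent. PCR copies and the mates of a pair are not independent molecules, so these intervals are too narrow even for counting error. Globin and macrophage genes were also present, with values given below.

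Tbx3 had the largest difference between the libraries among the 4 T-box genes. This gene encodes the repressor that marks the conduction system (chromosome 5, plus strand, 120120678 to 120134733, mm9). Its level was 9.90 RPKM in the control (interval 9.66 to 10.14, from 6605 reads) and 3.45 RPKM in the mutant library (3.32 to 3.59, from 2489 reads). The mutant library was thus low and the control library high, at 34.9% of the control level. The ratio was 2.87-fold lower (2.74 to 3.005), or -1.52 on the log2 scale, the value that the authors' deposited table also gives. In bulk RNA of sorted cells, fewer Tbx3-expressing cells and less Tbx3 RNA in each cell cannot be told apart.

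Differences were counted by size, which asked for a gene at 5 RPKM in 1 library or more and for a log2 ratio, taken after 1 RPKM was added to both values, of at least 1 in either direction. By this rule 1 of the 4 T-box genes, Tbx3 at -1.29, was lower in the mutant library and 0 were higher. Of all 6343 genes at that level, 170 were lower (2.68%) and 64 were higher (1.01%). Tbx18 lies under 5 RPKM in both libraries and could not be counted either way. Tbx3 itself reaches the rule through its control value only.

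**Figure D1:**
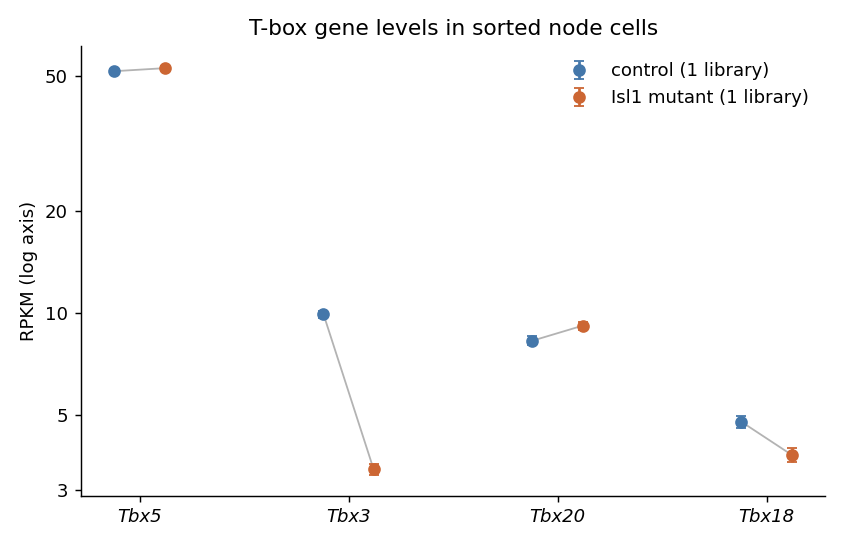
Level of each T-box gene in RPKM on a log axis, with 1 point for the control library and 1 for the Isl1 mutant library. Bars are exact 95% Poisson intervals for counting error, with each read counted as independent. Tbx3 goes from 9.90 to 3.45 RPKM, below Tbx18, while Tbx5 stays near 52 RPKM and Tbx20 between 8.27 and 9.16 RPKM.

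Tbx3 shares its start with a gene on the opposite strand, listed as Gm2301 and named Tbx3os1 under the same Ensembl identifier in GENCODE release M 21. Gm2301 stood at 8.52 RPKM in the control and 3.91 RPKM in the mutant library. The ratio was 2.18-fold lower (1.56 to 3.09), resting on 107 and 53 reads or a multiple of them, in the direction seen for Tbx3. The gene spans overlap over 697 bases, from 120120678 to 120121374. The kit used for these libraries does not mark strand, so reads from the shared stretch cannot be assigned to either gene. In GENCODE M 21, 115 exon bases of Tbx3 are also exon of the antisense gene, 1.74% of its 6624 exon bases, and the recovered reads of Tbx3 correspond to 6059 bases. Those of Gm2301 correspond to 114 bases, or a multiple, so how much of the Gm2301 value is made of Tbx3 reads cannot be told.

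**Figure D2:**
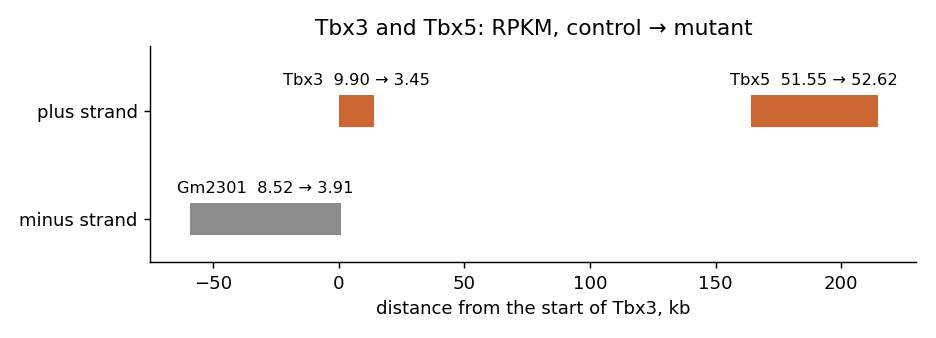
Map of the Tbx3 and Tbx5 genes and of the antisense gene Gm2301 by distance from the start of Tbx3 in kb, with the strand on the vertical axis and RPKM in the control and mutant library above each gene. Tbx3 and Gm2301 are both lower in the mutant library, and Tbx5, beginning 149938 bases past the end of Tbx3, is level.

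Tbx5, the activator whose mutation causes Holt-Oram syndrome in people, lies next to Tbx3 on the same strand (chromosome 5, 120284672 to 120335227). It was the most abundant T-box gene per length, at 51.5 RPKM in the control (interval 50.9 to 52.2, from 23790 reads) and 52.6 RPKM in the mutant library (51.99 to 53.3, from 26249 reads). The ratio was 1.02 (1.003 to 1.04), a difference too small to read without a replicate of either genotype. Between the end of Tbx3 and the start of Tbx5 lie 149938 bases. These neighbours of 1 family and 1 strand therefore had different ratios, -1.52 and 0.03 on the log2 scale. Measured per length, Tbx3 amounted to 19.2% of the Tbx5 level in the control and to 6.56% in the mutant library. Put the other way, the activator gene exceeded the repressor gene 5.21-fold in the control and 15.2-fold in the mutant library.

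Tbx20 (chromosome 9, minus strand, 24527631 to 24578746) encodes a factor of heart muscle and endocardium that restrains Tbx2 in the developing chambers. Its level was 8.27 RPKM in the control (8.03 to 8.52, from at least 4313 reads) and 9.16 RPKM in the mutant library (8.91 to 9.41, from at least 5162 reads). The mutant value was 1.11-fold higher (1.06 to 1.15). This is the highest ratio among the 4 genes and still well under 2-fold.

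Tbx18 (chromosome 9, minus strand, 87597635 to 87626095) encodes the repressor of the sinus horns and is also made in the epicardium. It had the lowest control level, 4.77 RPKM (4.56 to 4.98, from 2071 reads), and stood at 3.81 RPKM in the mutant library (3.63 to 3.99, from 1789 reads). The value was 1.25-fold lower (1.17 to 1.33), a shift that its level range shares, as given below.

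In the control library the order per length was Tbx5, Tbx3, Tbx20 and Tbx18. In the mutant library it was Tbx5, Tbx20, Tbx18 and Tbx3, so Tbx3 moved from the second place to the last. Neighbours in both orders had counting intervals that did not overlap, the closest being Tbx18 (from 3.63 RPKM) and Tbx3 (up to 3.59 RPKM) in the mutant library. These intervals count each read as independent and are therefore too narrow. The gap between Tbx18 and Tbx3 is so small that their order in the mutant library is not settled. How far such levels vary between pools was not measured. Tbx18 amounted to 48.1% of the Tbx3 level in the control and 110.4% in the mutant library. The summed T-box level was 74.5 RPKM and 69.04 RPKM, of which Tbx5 made up 69.2% and 76.2%.

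Of 17 genes of the wider family, 12 had no row, among them T, Eomes, Tbr1 and the limb gene Tbx4. The remaining gene besides the 4 members was Mga, whose large product carries a T-box and a second domain that pairs with MAX. Mga went from 4.38 to 3.33 RPKM, 1.31-fold lower (1.27 to 1.36). Every gene of the table reaches at least 1.00 RPKM in 1 library, so the table holds no gene below that level in both.

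The log2 ratio moved with expression level in these libraries, and each T-box gene was therefore set beside genes of its own level, taken as the geometric mean of both libraries. For Tbx3 the range was 5 to 10 RPKM, where 2175 genes had a median log2 ratio of -0.18 and quartiles of -0.48 and 0.10. Only 15 of them, or 0.690% with Tbx3 included, had a ratio as low as that of Tbx3, which lay 1.34 below the median. Tbx20 fell in the same range, and 78.5% of those genes had a ratio at or below its own. For Tbx18 the range was 2 to 5 RPKM, with a median of -0.31 over 3130 genes, beside -0.32 for Tbx18 itself. Tbx5 lay between 50 and 100 RPKM, where 389 genes had a median of 0.02, beside 0.03 for Tbx5. Tbx18 and Tbx5 thus sat at the middle of their level ranges, Tbx20 above the upper quartile and Tbx3 near the bottom.

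**Figure D3:**
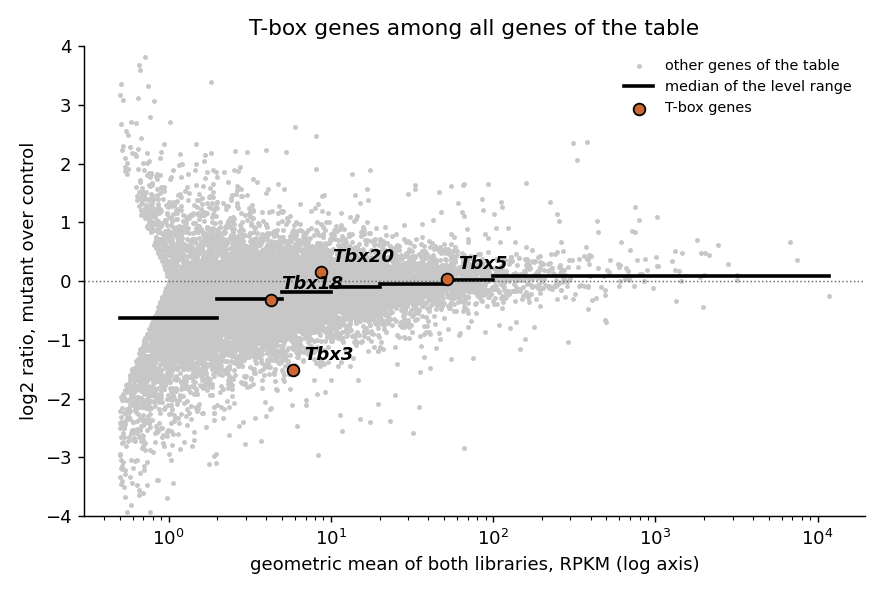
Log2 ratio of mutant over control RPKM against the geometric mean of both libraries in RPKM on a log axis, for the T-box genes and the other genes of the table; black bars are medians of 7 level ranges. Tbx3 lies at -1.52, 1.34 below its bar, and the other 3 T-box genes lie within 0.33 of theirs; 232 genes below 0.5 RPKM and 9 genes beyond a log2 ratio of 4 in size are not drawn.

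Among other regulators, the table's own class column marks 1093 genes as transcription regulators, of which 549 reached 5 RPKM in 1 library or more. This comparison was chosen after the table was seen. Of the 549 genes, 17 (3.1%) were lower by size and 0 (0%) higher, and the median log2 ratio was -0.21. Tbx3 had the eighth lowest ratio of the 549, Tbx5 lay at rank 406 and Tbx20 at rank 465. A gene entered this set by the higher of its 2 values, so the set is not independent of the ratio. Tbx3 and Isl1 entered through the control library only, with mutant values of 3.45 and 1.52 RPKM. Isl1, at the lowest ratio, was followed by Myc, a growth regulator, at 8.89 and 1.98 RPKM. Tbx3 was the only T-box gene among the 17. The posterior second heart field gene Osr1 was another, at 20.99 and 9.83 RPKM.

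**Figure D4:**
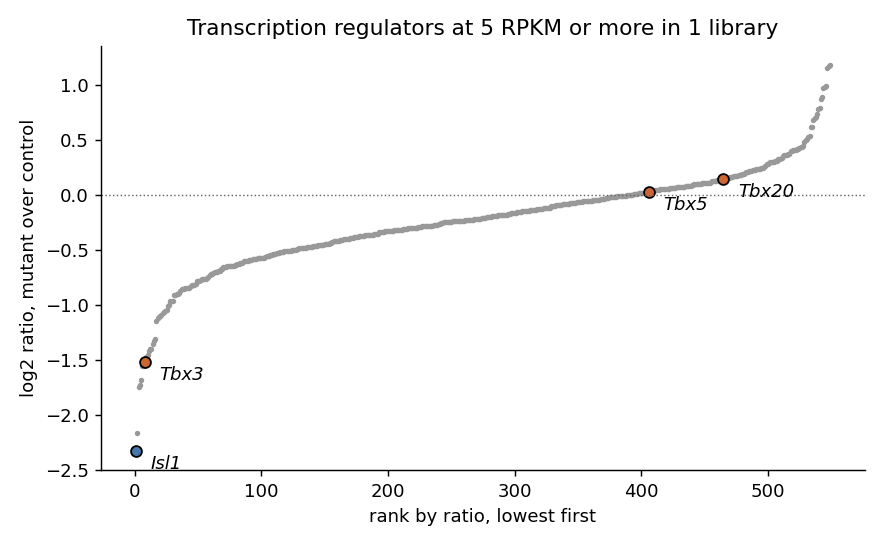
Log2 ratio of mutant over control RPKM for 549 transcription regulators that reach 5 RPKM in 1 library or more, in order of the ratio, with Isl1 (blue) and 3 T-box genes (orange) marked. Tbx3 is eighth from the bottom at -1.52, and Tbx5 and Tbx20 lie just above 0.

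For each T-box gene the 3 named protein-coding genes with the most similar pair of levels were sought among 10553 genes, by distance over both log2 values. With 2 libraries this measure compares 2 numbers per gene and says nothing on shared control. For Tbx3 they were Cdh6, a cadherin gene (9.26 and 3.39 RPKM, distance 0.099), Ehmt2, a histone methyltransferase gene (9.91 and 3.71 RPKM), and Lrrc17 (9.64 and 3.21 RPKM, distance 0.11). For Tbx5 the nearest gene was Tubb2c, a tubulin gene, at 52.1 and 52.3 RPKM. Edem2 was nearest to Tbx20 at 8.23 and 9.27 RPKM, and Rwdd2b to Tbx18 at 4.75 and 3.78 RPKM. The nearest genes of Tbx5, Tbx20 and Tbx18 were closer to them, at distances of 0.018, 0.019 and 0.013, than Cdh6 was to Tbx3.

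Genes of working heart muscle that TBX2 or TBX3 represses were compared next. Of 8 listed genes 7 were measured, and 6 of these were higher in the mutant library. By size 2 were higher, beside 1.01% of all genes at 5 RPKM or more. The 1 lower gene had a log2 ratio of -0.08. The median log2 ratio was 0.72, beside -0.22 over all 12446 genes, of which 32.9% were higher. Nppa, the atrial natriuretic peptide gene and a classical T-box target, went from 168 to 861 RPKM (5.13-fold, interval 5.05 to 5.21). Nppb, its neighbour, which encodes the B-type peptide, went from 2.44 to 15.02 RPKM (6.16-fold, 5.37 to 7.09). The gap junction genes Gja1 (11.4 and 21.6 RPKM) and Gja5 (48.1 and 71.5 RPKM) had ratios of 1.89 and 1.49, and the small muscle protein gene Smpx one of 1.64 (54.9 and 90.2 RPKM). Cited1, a transcriptional co-regulator gene, stood at 28.5 and 31.7 RPKM. Kcnj2 had no row. These genes are heart muscle genes, and the 9 listed heart muscle markers were also higher in 8 cases, with a median of 0.38. The part of a larger share of heart muscle RNA in these ratios was not tested.

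The T-box element was read in the promoters of these genes to show what such a site looks like. Windows of 300 bases, from 250 before to 50 after each gene's start, came from RefSeq on GRCm38.p6, and both strands were searched for the octamer AGGTGTGA and for its inner letters GGTGTG, which every octamer also contains. The following sequences run 5′ to 3′ on the plus strand, and capitals mark the octamer in Nppa and Cdkn1a and the inner letters in Nppb, each possibly as the reverse complement. Nppa and Nppb are shown for the 250 bases before the start, as the measured genes of the list that passed the size rule. Cdkn1a, a cell cycle inhibitor gene that TBX2 and TBX3 repress, is shown for the site alone.
Nppa, chr4:148000472-148000721: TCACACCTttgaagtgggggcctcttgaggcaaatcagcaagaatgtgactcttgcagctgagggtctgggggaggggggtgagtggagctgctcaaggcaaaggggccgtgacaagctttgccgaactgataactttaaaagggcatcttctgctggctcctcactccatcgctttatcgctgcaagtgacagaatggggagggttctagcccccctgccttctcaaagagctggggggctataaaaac
Nppb, chr4:147985650-147985899: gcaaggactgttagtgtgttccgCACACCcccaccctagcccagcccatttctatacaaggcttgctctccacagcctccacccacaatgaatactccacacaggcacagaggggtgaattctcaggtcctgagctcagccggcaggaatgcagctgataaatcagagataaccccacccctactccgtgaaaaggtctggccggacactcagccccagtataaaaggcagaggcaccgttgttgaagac
Cdkn1a, chr17:29093772-29093799: agcagccgagAGGTGTGAgccgccgcgg

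In Nppa the octamer reads TCACACCT and begins 250 bases before the start, at 148000472. In Nppb the inner letters read CACACC and begin 227 bases before the start, and no full octamer is present. The Cdkn1a octamer begins at base 14 of the transcript. Of all 32851 windows, 1.28% held the octamer and 19.0% the inner letters. Of 6 genes of the repressed muscle list with a window, Nppa held the octamer and Nppa and Nppb the inner letters. Among genes with a window that passed the size rule, 2 of 35 higher genes held the octamer and 0 of 105 lower genes, beside 36 of 4410 (0.816%) at 5 RPKM or more. The 2 genes were Nppa and Sh3kbp1, an adaptor protein gene at 5.82 and 13.3 RPKM, named here after its values were seen. The windows of Tbx18 and Tbx20 held neither motif. A match to these letters is a description of the window and not evidence of binding.

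Growth control genes that TBX2 or TBX3 represses had ratios on both sides of 0. Of 6 listed genes 4 were measured, 2 higher and 2 lower, beside 67.1% lower among all genes. Ndrg1, a stress and differentiation gene, was higher by size at 2.98 and 8.81 RPKM. Of all genes at 5 RPKM or more, 1.01% were higher by size. Mycn, a growth regulator gene, had levels of 7.47 and 8.24 RPKM. Cdkn1a stood at 2.57 and 1.88 RPKM. The median was -0.15, beside -0.22 for all genes.

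Of 15 measured genes that TBX5 activates, 4 were higher and 11 lower, beside 67.1% lower among all genes. Their median was -0.11, beside -0.22 for all genes. The highest log2 ratio of the list, 5.03, came from a gene at 0.034 RPKM in the control and 1.12 RPKM in the mutant library. By size, Nppa was higher, and Bmp4, Osr1 and Tbx3 were lower, beside 1.01% higher and 2.68% lower of all genes at 5 RPKM or more. Bmp4, a growth factor gene of the node and its surroundings, went from 53.04 to 24.7 RPKM. Atp2a2, the gene of the calcium pump of the sarcoplasmic reticulum, stood at 166 and 163 RPKM, a ratio of 0.983, beside 1.02 for Tbx5 itself. Id2, an inhibitor of helix-loop-helix factors, had levels of 70.5 and 49.3 RPKM. Nppa and Gja5 stand in this list and in the repressed list, since both kinds of factor act on them. Gas1 had no row.

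Pacemaker genes, the programme that TBX3 protects, were lower in 8 of 10 measured cases, beside 67.1% lower among all genes. Their median log2 ratio was -0.86, and 3 were lower by size, beside 2.68% of all genes at 5 RPKM or more. These were Isl1 and the calcium channel genes Cacna1d (12.1 and 5.40 RPKM) and Cacna2d2 (14.2 and 5.24 RPKM). Isl1 is the targeted gene, so its lower value follows from the design, and it is part of these counts and of the median. Tbx3, at -1.52, lay below the median of this list, and Tbx18, at -0.32, above it. Hcn4 itself, under 5 RPKM in both libraries, went from 1.99 to 0.541 RPKM, 3.67-fold lower (2.80 to 4.85), from at least 241 and 71 reads. Its log2 ratio was -1.88, with an interval of -2.28 to -1.49 that includes the -1.52 of Tbx3. With the level-range median subtracted, Hcn4 was at -1.26 and Tbx3 at -1.34. Shox2, the homeobox gene that acts beside Tbx3 in the node, stood at 8.64 RPKM in the mutant library, a log2 ratio of -0.78. Kcnj5, a subunit gene of the acetylcholine-gated potassium channel, had levels of 27.8 and 29.8 RPKM. Hcn2, Cacna1g and Gjd3 were among the listed genes with no row.

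Of 22 listed genes of T-box partner proteins, 18 were measured, 4 higher and 14 lower, beside 67.1% lower among all genes. Their median was -0.35, beside -0.22 for all genes. Only Isl1, the targeted gene, was lower by size, beside 2.68% of all genes at 5 RPKM or more. Gata6, a partner of TBX5, stood at 26.9 and 22.8 RPKM, and Mef2c, a muscle factor gene, at 29.1 and 30.1 RPKM. Chd4, the remodeller of the NuRD complex that TBX5 and TBX20 recruit, had levels of 24.9 and 13.4 RPKM, a log2 ratio of -0.90. Hdac1 and Hdac3, deacetylase genes, stood at 55.9 and 59.9 RPKM and at 26.7 and 25.6 RPKM. Nkx2-5, Msx1, Msx2 and Sall4 had no row.

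The BMP pathway switches on Tbx2 and Tbx3 in the heart, and its genes were lower in 10 of 13 measured cases, beside 67.1% lower among all genes, with a median of -0.46 beside -0.22. Only Bmp4 was lower by size, with a log2 ratio of -1.10, beside 2.68% of all genes at 5 RPKM or more. It was not the lowest of the list, whose lowest log2 ratio, -1.517, belonged to a gene that did not pass the rule. Id3, a direct BMP target, stood at 64.05 and 46.4 RPKM, while the ligand gene Bmp7 had levels of 12.7 and 13.7 RPKM and the shared mediator gene Smad4 8.998 and 13.8 RPKM. Of 13 genes of the Tbx1 programme in the second heart field 3 were measured, all lower, and none passed the size rule. Among them were the adaptor gene Crkl (11.1 and 7.67 RPKM) and Eya1 (1.15 and 1.04 RPKM).

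**Figure D5:**
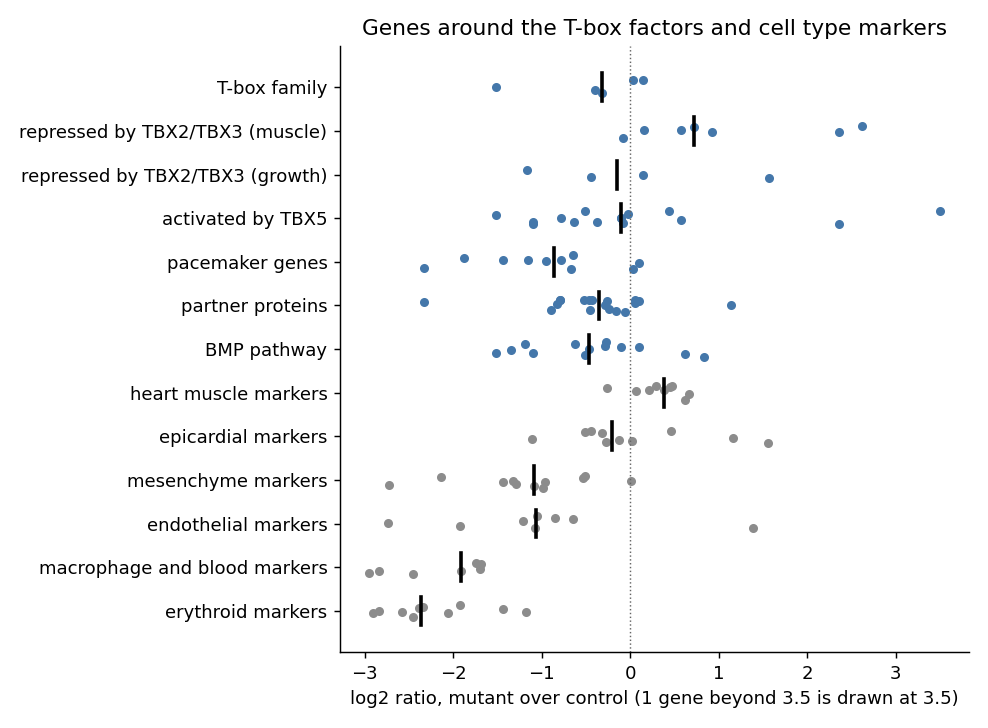
Log2 ratio of mutant over control RPKM for measured members of 7 lists around the T-box factors (blue) and 6 lists of cell type markers (grey); each point is a gene and each black bar the median of a list. The muscle genes repressed by TBX2 or TBX3 have a median of 0.72 and the pacemaker genes one of -0.86, and the erythroid markers lie lowest at -2.36.

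Markers of other cells differed between the 2 libraries as well, and with 1 pool per genotype, genotype and pool cannot be told apart. Epicardial markers, whose cells make Tbx18 and whose list includes it, summed to 95.3 RPKM in the control and 111 RPKM in the mutant library. Of the 10 measured, 4 were higher and 6 lower, and the median was -0.20, with Upk3b at 33.1 and 33.5 RPKM and Aldh1a2 at 22.4 and 18.5 RPKM. Krt19 was the member higher by size, at 9.77 and 28.8 RPKM, a rise larger than that of the sum. Fibroblast and mesenchyme markers summed to 786 and 501 RPKM and were lower in 10 of 11 cases, 5 of them by size. Their median was -1.09, and Pdgfra stood at 9.53 and 1.45 RPKM. To set beside the counts of this paragraph, 67.1% of all genes were lower, with a median of -0.22. Of those at 5 RPKM or more, 2.68% were lower by size, and genes with a geometric mean under 2 RPKM had a median of -0.62. The 7 measured macrophage and blood markers were all lower (summed 41.1 and 7.43 RPKM) as were the 10 erythroid markers (390.9 and 66.7 RPKM), with medians of -1.91 and -2.36. Endothelial markers summed to 25.1 and 12.9 RPKM and were lower in 7 of 8 cases, while Cdh5 and Flt1 had no row. Neural crest and glia markers summed to 16.8 and 10.2 RPKM over 4 of 8 genes, with no row for Sox10. Of the foregut and lung epithelium markers 2 were measured, Krt8 and Krt18, which summed to 32.7 and 47.1 RPKM. Heart muscle markers summed to 13676 and 19238 RPKM, with Actc1, the cardiac actin gene, at 5374 and 8539 RPKM. No measured marker was listed at 0, and the part of these shifts in the T-box ratios was not tested.

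Relative to the heart muscle markers, with their median set to 0, Tbx3 was at -1.90, Tbx18 at -0.70, Tbx5 at -0.35 and Tbx20 at -0.23. This scale was added after the data were seen. On it the direction of Tbx5 and Tbx20 turns, while Tbx3 remains the T-box gene with the lowest ratio and the only one past the size rule. Lowering all ratios by the same amount keeps their order and could not have removed Tbx3. Over all genes, 655 were lower by size and 24 higher on this scale, beside 170 and 64 on the main scale.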

How the data were processed

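Poly(A) RNA of sorted node cells was sequenced in 2 libraries, per the labels' protocols. The submitters' processing notes name Trim Galore, FastQC, TopHat2, Bowtie2 and mm9 without versions; for the counting step, a tool is not given in the sources. The authors' table holds 1 value per gene and library over constitutive exons, with no unit in its header. These deposited values were inferred here to be RPKM because, in 284 small RNA genes, value times length gave whole reads within 0.01 in 284 control and 276 mutant cases. The authors' deposited log2 fold change equals the log2 ratio of both values (largest difference 1.89e-07). The signed fold, a score deposited by the authors, was not used.

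Whole reads were recovered for 12355 symbols (99.3%) as the smallest that fit both values, so true reads can be a multiple. The entry with the highest mean was kept per symbol. Intervals of a fold were exact (Clopper-Pearson, conditional on the summed reads) and those of a level exact Poisson. With 1 library per genotype no test was made. Members and the 16 gene lists were chosen with earlier results of these data known, and the lists support nothing on their own. Genes named are the T-box members, Isl1, each list's members past the size rule and its 5 most abundant, and the 3 nearest genes of each member; others are named where a count is small, a row is missing or the text says so. Values of some listed genes are not reported here. Alternatives were other pseudocounts, level floors, fold sizes, scalings, means for medians, and subtraction of the median of 7 level ranges. Python 3.11.15, pandas 2.3.3 and scipy 1.17.1 were used, and scripts were tested on simulated data.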

Additional observations from a re-analysis of the deposited data

How the results depend on the processing

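Tbx3 had a lower mutant value in each scaling and pseudocount tried, although a pseudocount cannot change the sign of a ratio. It passed the size rule in all but 2 of the settings, 9 of 11. Smaller pseudocounts, lower floors, the 1.5-fold size and the heart muscle scale could not have removed Tbx3, so those passes are no support. With a pseudocount of 5 its log2 ratio was -0.82 and 0 T-box genes passed, and with a floor of 10 RPKM 0 passed because Tbx3 reaches 9.90 RPKM. Its log2 ratio was -1.29 with a pseudocount of 1, -1.45 with the median ratio set to 0, -1.40 with upper-quartile scaling, -1.34 with the level-range median subtracted and -1.90 with the heart muscle median set to 0. In the same order of the last 4 settings, Tbx20 gave 0.22, 0.27, 0.33 and -0.23, and Tbx5 gave 0.10, 0.15, 0.01 and -0.35. Tbx18 gave -0.15 with a pseudocount of 5, -0.20 with upper-quartile scaling, -0.011 with the level-range median subtracted and -0.70 with the heart muscle median set to 0. No T-box gene was higher by size in any setting.

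Over all genes, the counts of 64 higher and 170 lower became 36 and 36 with a pseudocount of 5, 139 and 489 with a floor of 1 RPKM or no floor, 239 and 750 at 1.5-fold, and 24 and 655 with the heart muscle median set to 0. Without a pseudocount 84 were higher and 281 lower, with a floor of 10 RPKM 50 and 69, and with the level-range median subtracted 94 and 86. Scaling alone gave 77 higher and 132 lower with the median ratio set to 0, and 86 and 114 with upper-quartile scaling. Of 16 lists, 5 had a median that changed sign under at least 1 alternative. The T-box family gave 0.03 with a floor of 5 RPKM, and the partner proteins 0.02 with the level-range median subtracted. TBX5-activated genes gave 0.02 with upper-quartile scaling and 0.14 as a mean. That mean includes a gene with a log2 ratio of 5.03 and a control value of only 0.034 RPKM. Growth control genes gave 0.10, 0.85 and 0.02 and epicardial markers 0.09, 0.24 and 0.04 with the level-range median subtracted, with a floor of 5 RPKM and as a mean. Depth was not the limit for the 4 T-box genes, which rest on 1789 reads or more in each library. The lack of replicates is, since no spread between pools could be set beside any ratio. No paired analysis was possible because each genotype has 1 library.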
